A study of Arabidopsis thaliana with 12 samples.

Results

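The 4 libraries of an Arabidopsis thaliana line that stably expressed Mlp124499 fused to green fluorescent protein (GFP) were compared with the 4 libraries of a line that expressed GFP alone, called Control, over every locus with enough counts to test. These are 8 of the 12 libraries of the series. Mlp124499 is a candidate secreted effector of Melampsora larici-populina, the fungus that causes leaf rust of poplar, and effectors are proteins that a pathogen delivers into host cells. Both lines were in the Col-0 background and both carried the BAR gene, so the fusion partner was the labelled difference. Plants grew in soil at 22 °C with 16 h of light per day, and their aerial tissue was pooled for RNA 15 days after germination. The promoter that drove the transgenes, the number of independent lines and the hour of harvest are not given in the labels. Nor do they tell if libraries of 1 line represent plants raised apart, so each p-value rests on a spread between samples that may be technical. The transgene's transcript was not analysed here and gave no check of the labels.

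The gene lists described below cover a few well-studied systems and hold 98 of the called genes, with 717 in none of them. In the Arabidopsis cold response, the CBF transcription factors bind the CRT/DRE element of target genes such as COR15A and KIN2, whose products protect cells during freezing and drying. The circadian clock is a loop in which the morning factors CCA1 and LHY repress evening genes through the evening element, while pseudo-response regulators such as PRR5 repress CCA1 and LHY in turn. Immunity rests on cell-surface receptors that sense microbial patterns and on salicylic acid, made through ICS1, EDS5 and PBS3 and induced by the regulators SARD1 and CBP60G. WRKY transcription factors bind the W-box of many of these genes.

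The libraries held 10813288 to 14733894 counts in Mlp124499 and 6645703 to 37378917 in Control. The share of trimmed reads that aligned was 88.0% to 93.1% in Mlp124499, against 57.6% in Control 1 and 89.3% to 94.4% in Control 2 to 4. Leaf markers were high in all 8 libraries, at a summed 25628 to 36219 counts scaled to library size (CPM) in Mlp124499 and 19385 to 38520 CPM in Control. Root markers summed to at most 5.12 CPM in Mlp124499 and 5.70 CPM in Control, and flower markers to at most 4.03 CPM in Mlp124499 and 4.11 CPM in Control. Seed storage markers summed to 26.5 CPM in Mlp124499 4, against 0.0774 to 0.272 CPM in the other 3 Mlp124499 libraries and 0.0671 to 0.265 CPM in Control. The part of these differences in the results was not tested. In a principal component analysis of the 8 libraries, the first component, with 40.7% of the variance, placed Mlp124499 1, 2 and 3 at 66.3, 61.3 and 42.5, Mlp124499 4 at -7.47, and Control 1 to 4 at -74.7, -30.2, -42.5 and -15.2. On that component Mlp124499 4 lay between the other libraries of its line and Control. The second component, with 30.7%, placed Mlp124499 1 to 4 at 0.72, 4.16, 58.8 and -55.5, and Control 1 to 4 at 72.2, -24, -21.8 and -34.5, so that Mlp124499 4 lay beyond both groups there and Control 1 apart from the other Control libraries. Values are therefore given library by library.

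Promoters of 6 genes are shown first because they hold the motifs that the results below return to. They were picked by hand, after the values had been seen, from 15 examined because they hold matches. Each is the 300 bases before the annotated gene start in RefSeq TAIR10.1, written 5′ to 3′ on the strand of the gene, with matches on either strand in capitals. In GRP7 (chr2:9266558-9266857, minus strand) and PRR5 (chr5:8358547-8358846, minus strand) the capitals mark the evening element AAAATATCT or its complement AGATATTTT.
GRP7: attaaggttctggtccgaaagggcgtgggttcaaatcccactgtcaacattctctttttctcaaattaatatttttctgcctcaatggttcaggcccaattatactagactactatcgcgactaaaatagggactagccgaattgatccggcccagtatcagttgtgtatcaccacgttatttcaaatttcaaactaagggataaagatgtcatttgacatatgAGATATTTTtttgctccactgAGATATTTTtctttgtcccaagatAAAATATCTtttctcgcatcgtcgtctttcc
PRR5: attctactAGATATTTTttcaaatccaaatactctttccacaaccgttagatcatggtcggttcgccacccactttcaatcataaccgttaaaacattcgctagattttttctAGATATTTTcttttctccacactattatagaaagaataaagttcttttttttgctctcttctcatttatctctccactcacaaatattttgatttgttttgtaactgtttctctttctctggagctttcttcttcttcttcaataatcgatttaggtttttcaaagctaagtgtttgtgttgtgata
In GOLS3 (chr1:3019339-3019638, plus strand) and COR15B (chr2:17710434-17710733, minus strand) they mark the CRT/DRE core CCGAC or its complement GTCGG.
GOLS3: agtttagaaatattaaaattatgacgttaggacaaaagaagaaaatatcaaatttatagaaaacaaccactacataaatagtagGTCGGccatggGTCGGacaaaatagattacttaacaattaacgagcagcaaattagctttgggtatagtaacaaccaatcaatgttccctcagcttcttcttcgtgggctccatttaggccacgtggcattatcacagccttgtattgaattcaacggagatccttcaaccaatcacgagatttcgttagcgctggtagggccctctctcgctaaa
COR15B: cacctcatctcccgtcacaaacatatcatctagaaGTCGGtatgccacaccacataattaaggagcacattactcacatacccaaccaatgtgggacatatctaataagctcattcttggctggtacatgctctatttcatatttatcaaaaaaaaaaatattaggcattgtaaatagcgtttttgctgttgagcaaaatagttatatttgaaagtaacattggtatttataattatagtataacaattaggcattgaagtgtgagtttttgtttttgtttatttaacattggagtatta
In SARD1 (chr1:27749249-27749548, minus strand) and CRK31 (chr4:6967409-6967708, plus strand) they mark the W-box core TTGAC or its complement GTCAA, and 2 of the matches in SARD1 stand side by side.
SARD1: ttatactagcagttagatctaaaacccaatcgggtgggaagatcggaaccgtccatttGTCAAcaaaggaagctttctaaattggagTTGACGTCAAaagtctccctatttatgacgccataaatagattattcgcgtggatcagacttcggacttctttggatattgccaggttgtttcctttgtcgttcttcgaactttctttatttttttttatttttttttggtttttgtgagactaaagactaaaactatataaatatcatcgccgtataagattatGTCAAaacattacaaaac
CRK31: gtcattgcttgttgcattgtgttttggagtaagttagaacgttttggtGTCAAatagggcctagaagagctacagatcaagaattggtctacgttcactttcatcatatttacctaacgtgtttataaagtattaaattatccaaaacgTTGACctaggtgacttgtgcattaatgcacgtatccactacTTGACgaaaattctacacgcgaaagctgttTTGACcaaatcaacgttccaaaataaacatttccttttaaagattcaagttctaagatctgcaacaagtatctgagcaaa
Of the other genes examined, KIN1 and KIN2 had 0 matches to the CRT/DRE core, GI and ELF4 had 0 to the evening element and PBS3 had 0 to the W-box core. These are matches of letters and were not tested as binding sites.

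Of 19090 genes tested out of 32833 loci, 297 rose and 518 fell in Mlp124499 relative to Control at an adjusted p under 0.05 in edgeR's quasi-likelihood test. That is 1.56% of the genes tested called higher, 2.71% called lower and 4.27% in all. Of the risen genes, 238 were at least 2-fold and 102 at least 4-fold higher, and of the fallen genes 407 and 159 were that much lower. The median log2 fold change over all genes tested was -0.01. The groups did not overlap in 708 of the 815 genes called. Over all genes tested, 4.31% had every Mlp124499 library above Control and 6.64% had every one below, 11.0% in all. These counts depended on single libraries and on the tool. Without Control 1, 2 and 3 they were 179 higher and 349 lower, 131 and 279, and 89 and 197. Without Mlp124499 1, 2 and 3 they were 105 and 187, 108 and 148, and 145 and 286, and without Mlp124499 4 they were 793 and 1085, which is 4.11% and 5.62% of the genes tested then. Without Mlp37347 4, a library of the third line that shares the estimate of spread, they were 729 and 829. Without Mlp37347 1, 2 or 3 they were 249 to 250 and 346 to 347, and without Control 4 they were 203 and 550. The counts of each list without a library, given below, stand against these totals. DESeq2 called 636 higher and 861 lower, and limma voom with sample weights called 3068 and 3841. Past the threshold whichever of the 12 libraries was left out were 81 higher and 145 lower genes.

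Genes of cold acclimation had the highest median of the lists described here. Of the 19 cold genes, all of which could be tested, 11 rose and 0 fell, with a median log2 fold change of 3.87, against 1.56% of all genes tested called higher. Of the 5 regulators 3 rose, and of the 14 targets 8 rose. Without Control 1, 2, 3 and 4 the number of risen cold genes was 4, 3, 2 and 4. Without Mlp124499 1, 2 or 3 it was 4 each time, and without Mlp124499 4 it was 16. Without Mlp37347 4 it was also 16, and 1 cold gene fell. With all libraries 1 regulator had every Mlp124499 library below every Control library and was not called.

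COR15A (AT2G42540), which encodes a chloroplast protein that protects membranes during freezing, stood at 1098, 787, 1999 and 187 CPM in Mlp124499 1 to 4, against 50.4, 61.5, 23.9 and 44.9 CPM in Control 1 to 4. Every Mlp124499 library lay above every Control library, and Mlp124499 4 was the lowest of its line. The log2 fold change was 4.49 ± 0.63 (SE, adjusted p 0.0038 in edgeR), and the gene stayed past the threshold whichever library was left out. Its neighbour and relative COR15B (AT2G42530) stood at 422, 313, 935 and 23.9 CPM in Mlp124499 1 to 4, against 8.36, 3.52, 2.48 and 2.16 CPM in Control 1 to 4. Here too the groups did not overlap, and the log2 fold change was 6.74 ± 0.93 (SE, adjusted p 0.0037 in edgeR). COR15B overlaps AT2G42520 on the other strand, and reads of the pair could have been shared.

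CBF1, CBF2 and CBF3, which act upstream of these targets, were the 3 regulators that rose, a count of 1 without Control 1 or Mlp124499 1, 2 or 3 and of 0 without Control 2, 3 or 4. CBF2 (AT4G25470) stood at 7.44, 6.31, 10.1 and 16.8 CPM in Mlp124499 1 to 4, against 1.46, 0.195, 0.671 and 0.668 CPM in Control 1 to 4. Mlp124499 4 was the highest of its line for this gene, while it was the lowest for the COR15 genes. The log2 fold change of CBF2 was 3.87 ± 0.82 (SE, adjusted p 0.0207 in edgeR), with adjusted p 0.0040 to 0.0773 over the fits that left out a library. CBF1 (AT4G25490) had 90, 107, 178 and 44 counts in Mlp124499 1 to 4, against 1, 1, 0 and 1 in Control 1 to 4, a ratio of 208 with a 95% counting interval of 70.6 to 1012. CBF3 (AT4G25480) stood at 13.2, 13.0, 24.9 and 4.86 CPM in Mlp124499 1 to 4, against 0.531, 0.521, 0.537 and 0.103 CPM in Control 1 to 4. The calls of CBF1 and CBF3 (adjusted p 0.0213 and 0.0311 in edgeR) were each kept in 5 of the 12 fits that left out a library, at up to 0.0812 and 0.0968. All 3 factors had every Mlp124499 library above every Control library, and as close relatives their reads may be shared among them.

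Further cold targets also had Mlp124499 4 as the lowest of its line. KIN2 (AT5G15970), a small hydrophilic protein of the cold response, stood at 582, 585, 1645 and 222 CPM in Mlp124499 1 to 4, against 57.7 to 69.2 CPM in Control. GOLS3 (AT1G09350), a galactinol synthase that starts the making of raffinose sugars, stood at 63.3, 47.9, 46.0 and 19.2 CPM in Mlp124499 1 to 4, against 1.06, 1.76, 0.671 and 2.93 CPM in Control 1 to 4. COR413-PM1 (AT2G15970), a plasma membrane protein of cold tolerance, stood at 775, 687, 600.2 and 87.3 CPM in Mlp124499 1 to 4, against 24.0 to 80.5 CPM in Control. In these 3 genes Mlp124499 4 still lay above every Control library. In LTI30, a dehydrin, the groups overlapped, since Mlp124499 4 stood at 4.86 CPM, against 84.7 to 119 CPM in the other Mlp124499 libraries and 2.42 to 6.25 CPM in Control. The dehydrins COR47 and ERD10 missed the threshold with 4 libraries (adjusted p 0.0634 and 0.0535 in edgeR) and passed it without Mlp124499 4 (0.0144 and 0.0122). COR47 stood at 1691, 1784, 4792 and 346 CPM in Mlp124499 1 to 4, against 157 to 409 CPM in Control.

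**Figure D1:**
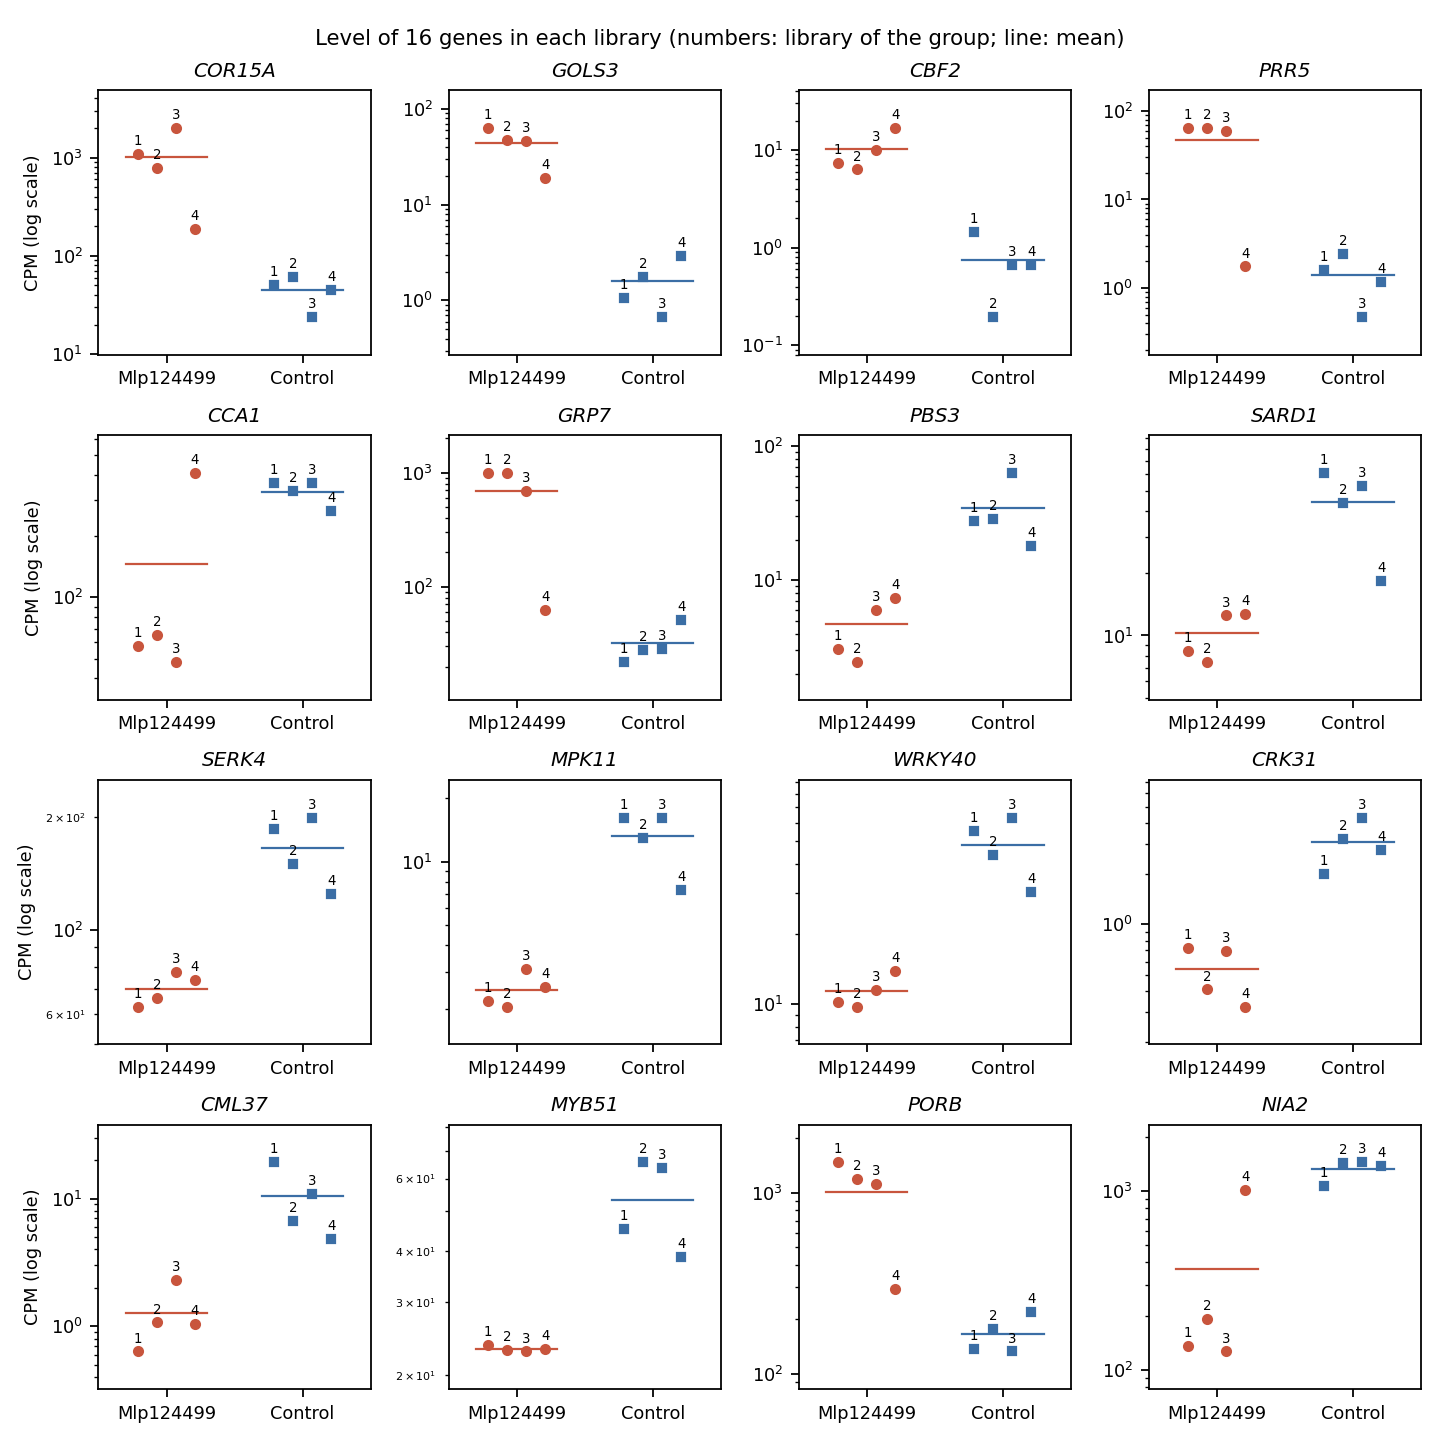
Level of 16 genes in each library, as CPM on a log scale, with the 4 Mlp124499 libraries (circles) left of the 4 Control libraries (squares), numbered by library, and a line at the group mean. Mlp124499 4 lies within the Control range for PRR5 and above it for CCA1, at the low end of its line but above Control for COR15A, GRP7 and PORB, and with its own line for SERK4, MPK11, WRKY40, CRK31 and MYB51.

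Genes of drying and abscisic acid (ABA), the hormone of water deficit, shared part of this pattern. Of 32 tested members 4 rose and 0 fell, with a median log2 fold change of 1.0, against 1.56% of all genes tested called higher. Without Mlp124499 4 the counts were 12 risen and 1 fallen, and without Mlp37347 4 they were 13 and 2. Without Control 2, 3 or 4 or Mlp124499 1, 2 or 3 only 1 member rose, and 2 rose without Control 1. ERD7 (AT2G17840), induced early in dehydration, stood at 147, 149, 271 and 70.7 CPM in Mlp124499 1 to 4, against 31.3, 27.3, 24.2 and 18.9 CPM in Control 1 to 4, a log2 fold change of 2.65 ± 0.46 (SE, adjusted p 0.0079 in edgeR). It was past the threshold whichever library was left out. ABF1, a transcription factor of ABA responses, stood at 46.8, 38.8, 51.5 and 5.19 CPM in Mlp124499 1 to 4, against 3.57 to 9.29 CPM in Control, so that the groups overlapped through Mlp124499 4. LEA14 and LEA4-5, which encode late embryogenesis abundant proteins, were the other risen members.

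Of the 18 raffinose and starch genes 5 rose and 0 fell, against 1.56% of all genes tested called higher. The median log2 fold change of the list was 0.58. All 5 were among the 10 genes of starch breakdown, whose mean log2 difference from the Control mean was 1.31, 1.03, 1.51 and -0.08 in Mlp124499 1 to 4, against 0.11, 0.10, -0.08 and -0.13 in Control 1 to 4. BAM3, a chloroplast beta-amylase, and GBSS1, a starch synthase, were the 2 members called lower without Mlp124499 4. Without Control 2 or 3 the list had 3 and 2 risen members, and without Mlp124499 1, 2 or 3 it had 3 each time. Without Mlp37347 4 it had 9 risen, and without Mlp124499 4 it had 7 risen and 2 fallen. ISA3 (AT4G09020), a debranching enzyme of starch granules, stood at 77.4, 69.3, 98.7 and 9.21 CPM in Mlp124499 1 to 4, against 7.03, 8.40, 6.04 and 7.55 CPM in Control 1 to 4. DPE1 (AT5G64860), which rearranges short glucans in the chloroplast, stood at 63.9, 50.7, 64.5 and 11.9 CPM in Mlp124499 1 to 4, against 8.92 to 10.5 CPM in Control. In both genes Mlp124499 4 lay just above the highest Control library. SEX1 (AT1G10760), the glucan water dikinase that opens the granule surface, stood at 773, 623, 801 and 78.5 CPM in Mlp124499 1 to 4, against 69.9 to 95.1 CPM in Control, and Mlp124499 4 lay inside the Control range. The log2 fold changes were 3.13 ± 0.51 for ISA3, 2.27 ± 0.41 for DPE1 and 2.74 ± 0.51 for SEX1 (SE, adjusted p 0.0062, 0.0089 and 0.0104 in edgeR).

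In several clock genes Mlp124499 4 stood apart from its line. Over all genes tested 1.56% were called higher and 2.71% lower. Of 31 clock genes 7 rose and 2 fell, with a median log2 fold change of 0.07. Without Mlp124499 4, 9 rose and 8 fell. The fallen count was 0 without Control 1 or Mlp124499 1, 2 or 3, 1 without Control 2 or 3, and 4 without Mlp37347 4. The risen count was 4 without Control 3 and 10 without Mlp37347 4. PRR5 (AT5G24470) stood at 64.3, 64.1, 59.2 and 1.75 CPM in Mlp124499 1 to 4, against 1.59, 2.41, 0.470 and 1.18 CPM in Control 1 to 4. Mlp124499 1, 2 and 3 lay far above Control and Mlp124499 4 lay within it. The log2 fold change of PRR5 was 5.08 ± 0.97 (SE, adjusted p 0.0116 in edgeR), and its call was lost without Control 3 (0.0531).

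Of the 9 evening genes 3 rose, and of the 11 morning genes 1 fell, counts that were 4 and 7 without Mlp124499 4. The evening count was 2 without any 1 of the Control libraries, and the morning count was 0 without Control 1, 2 or 3 or Mlp124499 1, 2 or 3. FKF1 (AT1G68050), a blue-light receptor of the flowering pathway, had 281, 271, 315 and 1 counts in Mlp124499 1 to 4, against 0, 0, 0 and 3 in Control 1 to 4, a ratio of 431 with a 95% counting interval of 147 to 2092. This ratio pools the libraries of each line and rests on Mlp124499 1, 2 and 3, since Mlp124499 4 lay within the Control range. The interval leaves out the spread between libraries. CCA1 (AT2G46830) stood at 57.7, 65.5, 48.2 and 408 CPM in Mlp124499 1 to 4, against 362, 331, 363 and 264 CPM in Control 1 to 4. LHY (AT1G01060) stood at 82.0, 91.7, 66.1 and 470.3 CPM in Mlp124499 1 to 4, against 476, 516, 512 and 372 CPM in Control 1 to 4. For both morning genes Mlp124499 4 was at or above the Control level, and neither passed with 4 libraries (adjusted p 0.416 and 0.316 in edgeR). Without Mlp124499 4 the log2 fold changes were -2.48 for CCA1 and -2.51 for LHY (adjusted p 0.0034 and 0.0103). The hour of harvest is not in the labels, and its part in these differences was not tested.

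A few clock genes separated the lines in all 4 libraries. GRP7 (AT2G21660), an RNA-binding protein under clock control, stood at 997, 1000, 693 and 62.9 CPM in Mlp124499 1 to 4, against 22.0, 27.9, 28.5 and 51.2 CPM in Control 1 to 4. Its relative GRP8 (AT4G39260) stood at 215, 219.9, 205 and 130.3 CPM in Mlp124499 1 to 4, against 59.5, 56.1, 69.0 and 87.7 CPM in Control 1 to 4. Both had Mlp124499 4 as the lowest of its line and above every Control library. GI (AT1G22770), which stabilises an evening F-box protein, stood at 143, 130.3, 89.1 and 25.0 CPM in Mlp124499 1 to 4, against 13.7 to 18.0 CPM in Control. ELF4 (AT2G40080), a part of the evening complex, stood at 5.71, 5.82, 8.67 and 0.324 CPM in Mlp124499 1 to 4, against 0.0651 to 0.257 CPM in Control. The margin of Mlp124499 4 for ELF4 rests on few counts, since 1 count in that library is 0.0648 CPM. GRP7, GRP8, GI and ELF4 were past the threshold whichever library was left out, with log2 fold changes of 4.40, 1.5, 2.54 and 5.01. RVE2 and CDF2, a morning MYB factor and a repressor of flowering genes, fell by 2.78 and 2.18 on the log2 scale and had every Mlp124499 library below Control.

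Immune genes were lower in Mlp124499, and here Mlp124499 4 mostly lay below Control too, in part nearer to Control than the rest of its line. Among the 33 genes of salicylic acid synthesis and signalling, 16 fell, 0 rose and the median log2 fold change was -1.51, against 2.71% of all genes tested called lower. Of the 4 synthesis genes 3 fell, of the 13 regulators 7, of the 5 receptors and partners 1, of the 3 turnover genes 2 and of the 3 pipecolate genes all 3. The pipecolate count was 0 without Control 3, Mlp124499 1 or Mlp124499 2 and 1 without Mlp124499 3. The turnover count was 0 without Control 3, Mlp124499 2 or Mlp124499 3 and 1 without Control 2 or Mlp124499 1. The regulator count was 1 without Mlp124499 1 or 2, 2 without Control 3, 3 without Control 2 and 4 or more without any other library. Of the 5 output genes 0 passed in edgeR, at a median of -1.86, and 3 had an unadjusted p under 0.05. Without Control 3 and without Mlp124499 1, 2 and 3 the number fallen was 5, 5, 4 and 9. Without Mlp124499 4 it was 19, and without Mlp37347 4 it was 20. The mean of the list, as a log2 difference from the Control mean, was -1.67, -1.74, -1.28 and -1.12 in Mlp124499 1 to 4, against 0.23, 0.13, 0.50 and -0.86 in Control 1 to 4, so that Control 4 lay nearest to Mlp124499. For the synthesis genes alone it was -2.03, -2.10, -1.74 and -1.02 in Mlp124499 1 to 4, against -0.62 in Control 4. For the pipecolate genes it was -2.66, -2.62, -2.06 and -2.54 in Mlp124499 1 to 4, against -1.21 in Control 4.

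PBS3 (AT5G13320), which joins isochorismate to glutamate on the way to salicylic acid, stood at 3.08, 2.46, 5.96 and 7.39 CPM in Mlp124499 1 to 4, against 27.9, 28.6, 63.4 and 18.1 CPM in Control 1 to 4. EDS5 (AT4G39030), which exports isochorismate from the chloroplast, stood at 4.26, 3.77, 3.33 and 7.52 CPM in Mlp124499 1 to 4, against 23.1, 20.2, 42.3 and 11.2 CPM in Control 1 to 4. SARD1 (AT1G73805), an activator of the synthesis genes, stood at 8.44, 7.46, 12.5 and 12.7 CPM in Mlp124499 1 to 4, against 61.1, 43.5, 52.8 and 18.4 CPM in Control 1 to 4. In all 3 genes the groups did not overlap, and Control 4 was the Control library nearest to Mlp124499. Their log2 fold changes were -2.86 ± 0.41, -2.35 ± 0.38 and -2.09 ± 0.34 (SE, adjusted p 0.0043, 0.0060 and 0.0064 in edgeR), past the threshold whichever library was left out. EDS5 and SARD1 each overlap a gene on the other strand.

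ICS1, the isochorismate synthase, stood at 17.1, 19.4, 27.3 and 20.0 CPM in Mlp124499 1 to 4, against 78.3, 46.6, 84.1 and 30.5 CPM in Control 1 to 4, a log2 fold change of -1.51 ± 0.34 (SE, adjusted p 0.0264 in edgeR). Its call was lost without Control 1 or 3 or Mlp124499 1 or 2, at adjusted p up to 0.102. EDS1 and PAD4, partners that relay signals of intracellular receptors, fell by 1.14 and 1.88 on the log2 scale. The pipecolate genes ALD1, SARD4 and FMO1, which make the mobile signal of systemic resistance, fell by 3.35, 1.79 and 3.32, with each call lost without Control 3, Mlp124499 1 or Mlp124499 2, and those of ALD1 and SARD4 also without Mlp124499 3. In SARD4 the groups overlapped. NPR3 (AT5G45110), a salicylic acid receptor, stood at 33.1, 34.7, 37.5 and 33.0 CPM in Mlp124499 1 to 4, against 66.1, 71.9, 80.3 and 51.5 CPM in Control 1 to 4, with no overlap. WRKY70, a factor downstream of salicylic acid, stood at 39.6, 33.6, 57.5 and 56.1 CPM in Mlp124499 1 to 4, against 121, 152, 182 and 84.5 CPM in Control 1 to 4.

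Of the 32 tested genes of pattern-triggered immunity 14 fell and 0 rose, against 2.71% of all genes tested called lower. The median log2 fold change of the list was -1.06. The mean log2 difference from the Control mean was -1.32, -1.17, -1.17 and -0.76 in Mlp124499 1 to 4. In Control 1 to 4 it was 0.14, 0.00, 0.17 and -0.32. Of the 9 receptors 4 fell, of the 8 signalling genes 3, of the 7 transcription factors 3 and of the 8 tested output genes 4. Without a library these counts were as low as 2, 1, 1 and 0, the last without Mlp124499 2. The number fallen was 4 to 9 without Control 1, 2 or 3, Mlp37347 1, 2 or 3 or Mlp124499 1, 2 or 3. It was 17 without Mlp124499 4 and 17 without Mlp37347 4. SERK4 (AT2G13790), a co-receptor of pattern receptors, stood at 62.7, 66.0, 77.7 and 73.6 CPM in Mlp124499 1 to 4, against 186, 150.0, 199 and 125 CPM in Control 1 to 4. SOBIR1 (AT2G31880), the adaptor kinase of receptor-like proteins, stood at 47.1, 46.2, 53.7 and 42.2 CPM in Mlp124499 1 to 4, against 150.3, 133, 129 and 80.3 CPM in Control 1 to 4. MPK11 (AT1G01560), a kinase activated by microbial patterns, stood at 2.18, 2.05, 3.10 and 2.53 CPM in Mlp124499 1 to 4, against 16.2, 13.0, 16.2 and 7.32 CPM in Control 1 to 4. The 4 Mlp124499 libraries lay close together and apart from Control in each, with log2 fold changes of -1.24 ± 0.20, -1.38 ± 0.21 and -2.41 ± 0.34 (SE, adjusted p 0.0055, 0.0053 and 0.0040 in edgeR).

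WRKY40 (AT1G80840), a quickly induced factor of immune responses, stood at 10.2, 9.76, 11.5 and 13.9 CPM in Mlp124499 1 to 4, against 55.5, 43.8, 63.2 and 30.2 CPM in Control 1 to 4, a log2 fold change of -2.08 ± 0.33 (SE, adjusted p 0.0053 in edgeR). It was past the threshold whichever library was left out. The chitin receptor genes CERK1 and LYK5 fell by 0.59 and 1.12 on the log2 scale, and each lost its call in most fits that left out a library. PEN1, PEN3 and SYP122, which serve secretion and export at sites of attack, fell by 0.93, 0.69 and 1.24. FRK1, a common reporter of pattern-triggered immunity, stood at 12.1, 15.3, 12.2 and 5.19 CPM in Mlp124499 1 to 4, against 29.2, 32.8, 31.9 and 13.3 CPM in Control 1 to 4, and missed the threshold (adjusted p 0.110 in edgeR). SOBIR1, WRKY40 and FRK1 overlap genes on the other strand.

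Members of 2 large families, a group of receptor kinases and the WRKY factors, also fell in part. Of all genes tested, 2.71% were called lower. Of 37 tested cysteine-rich receptor-like kinases (CRKs), many of them induced by pathogens or salicylic acid, 17 fell and 0 rose, with a median log2 fold change of -1.04. Without Control 1, 2 or 3 or Mlp124499 1, 2 or 3 the number fallen was 10, 9, 6, 7, 3 and 10. Of 57 tested WRKY genes 13 fell and 0 rose, with a median of -0.62, and in the same 6 fits the number was 6, 4, 2, 2, 2 and 4. It was 6 to 7 without Mlp37347 1, 2 or 3 and 20 without Mlp37347 4. The WRKY list shares genes with other lists here, among them WRKY70, WRKY40 and WRKY6, so its count is not separate from theirs. CRK31 (AT4G11470) stood at 0.726, 0.410, 0.697 and 0.324 CPM in Mlp124499 1 to 4, against 1.99, 3.19, 4.3 and 2.75 CPM in Control 1 to 4, a log2 fold change of -2.51 ± 0.39 (SE, adjusted p 0.0053 in edgeR). CRK11 (AT4G23190) stood at 16.7, 18.7, 18.1 and 14.1 CPM in Mlp124499 1 to 4, against 41.9, 45.6, 55.3 and 31.3 CPM in Control 1 to 4. In both, and in CRK28 and WRKY39, the groups did not overlap and the call held whichever library was left out. Several CRK genes lie in tandem clusters of similar sequence, so reads may be shared among them.

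**Figure D2:**
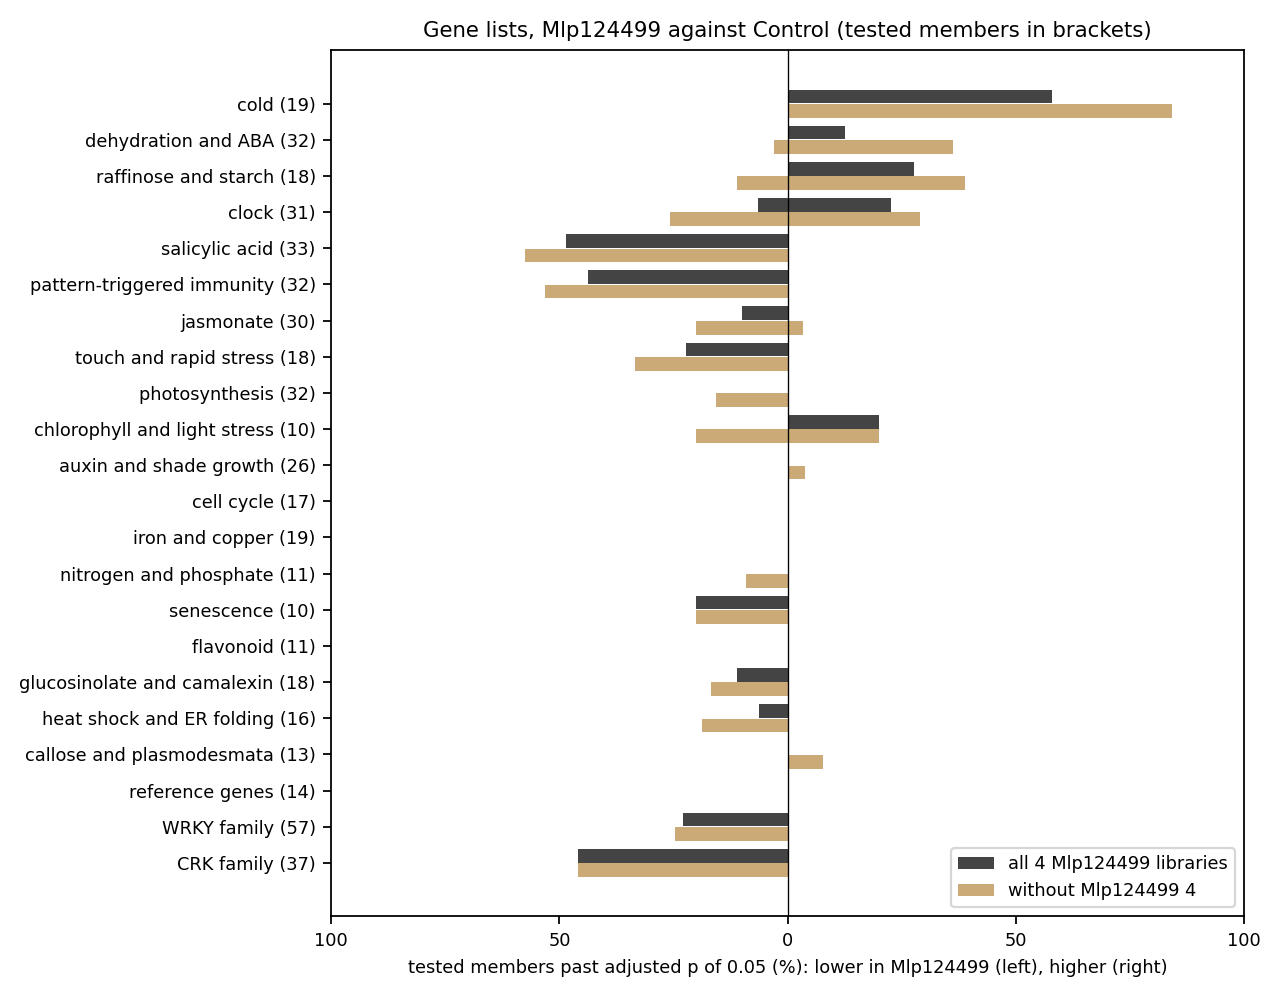
Share of tested members of each gene list past an adjusted p of 0.05, in percent, with members lower in Mlp124499 to the left and higher to the right, from the 4 Mlp124499 libraries (dark bars) and without Mlp124499 4 (light bars). Cold genes reach furthest right, with 57.9% risen, and salicylic acid genes furthest left in the first set, with 48.5% fallen.

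Other responses to wounding, touch and attack fell in part. Of all genes tested, 2.71% were called lower. Of 18 tested touch and rapid stress genes 4 fell and 0 rose, and the number was 1 without Control 1, 2 or 3 or Mlp124499 1, 2 or 3, and 2 without Control 4, Mlp37347 1 or Mlp37347 3. CML37 (AT5G42380), a calcium sensor of wounding, stood at 0.635, 1.07, 2.32 and 1.04 CPM in Mlp124499 1 to 4, against 19.2, 6.64, 10.9 and 4.80 CPM in Control 1 to 4, a log2 fold change of -3.01 ± 0.54 (SE, adjusted p 0.0091 in edgeR). Of 30 tested jasmonate genes 3 fell (LOX4, JAZ6 and JAZ9), and 0 fell without Control 3 or Mlp124499 1, 2 or 3, 1 without Control 2, 5 without Control 4, 6 without Mlp124499 4 and 7 without Mlp37347 4. MYB51 (AT1G18570), the activator of indole glucosinolate synthesis, stood at 23.7, 23.0, 22.8 and 23.1 CPM in Mlp124499 1 to 4, against 45.3, 65.7, 63.7 and 38.7 CPM in Control 1 to 4. The 4 Mlp124499 libraries were nearly equal, and it had a log2 fold change of -1.20 ± 0.18 (SE, adjusted p 0.0049 in edgeR). With CYP81F2 it made up the 2 of 18 glucosinolate and camalexin genes that fell, a count of 3 without Control 4, Mlp124499 4 or Mlp37347 4 and of 1 without any other library. WRKY6 and SAG13 were the 2 of 10 senescence genes that fell. That count was 0 without Control 3 or Mlp124499 1 or 2, 1 without Control 1 or 2 or Mlp124499 3, and 2 or 3 without any other library. HSP90.1 was the 1 of 16 heat shock and folding genes that fell, and the count was 3 without Control 4 or Mlp124499 4, 1 without Mlp37347 4 and 0 without each of the other 9 libraries.

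Growth and housekeeping lists had few or no calls in edgeR. Photosynthesis (32 genes tested), auxin and shade (26), cell cycle (17), iron and copper (19), nitrogen and phosphate (11), flavonoid (11), callose and plasmodesmata (13) and reference genes (14) had 0 members past the threshold with all libraries, at medians of -0.33 to 0.38 on the log2 scale. At an unadjusted p under 0.05 they had 10, 2, 0, 3, 1, 1, 5 and 0 members in that order. DESeq2 called 3, 0, 0, 1, 1, 1, 1 and 0, and limma voom with sample weights called 18, 10, 10, 6, 6, 6, 5 and 2. Of the 32 photosynthesis genes, 9 had every Mlp124499 library above every Control library and 0 had every one below. Over all genes tested these shares were 4.31% and 6.64%. The mean log2 difference of the photosynthesis list from the Control mean was 0.21, 0.08, 0.18 and 0.44 in Mlp124499 1 to 4. In Control 1 to 4 it was -0.58, 0.23, 0.11 and 0.23, so that Control 1 stood apart. For the reference genes Control 1 stood at -0.51, against 0.14 to 0.20 in Control 2 to 4. Without Mlp124499 4 the median of the photosynthesis list was 0.46, and 5 members fell and 0 rose. RCA, the activase of Rubisco, was among the fallen, at 3884, 3091, 4035 and 8014 CPM in Mlp124499 1 to 4, against 5597, 7852, 6517 and 10353 CPM in Control 1 to 4. PORB (AT4G27440) and PORA, light-dependent enzymes of chlorophyll synthesis, were the 2 of 10 chlorophyll and light stress genes that rose. The share called higher was 1.56% of all genes tested. PORB stood at 1474, 1188, 1114 and 293 CPM in Mlp124499 1 to 4, against 137, 177, 133 and 219.6 CPM in Control 1 to 4, with Mlp124499 4 above Control by the smallest margin. NIA2 (AT1G37130), a nitrate reductase, stood at 136, 192, 127 and 1016 CPM in Mlp124499 1 to 4, against 1063, 1437, 1445 and 1380 CPM in Control 1 to 4, and missed the threshold (adjusted p 0.380 in edgeR).

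**Figure D3:**
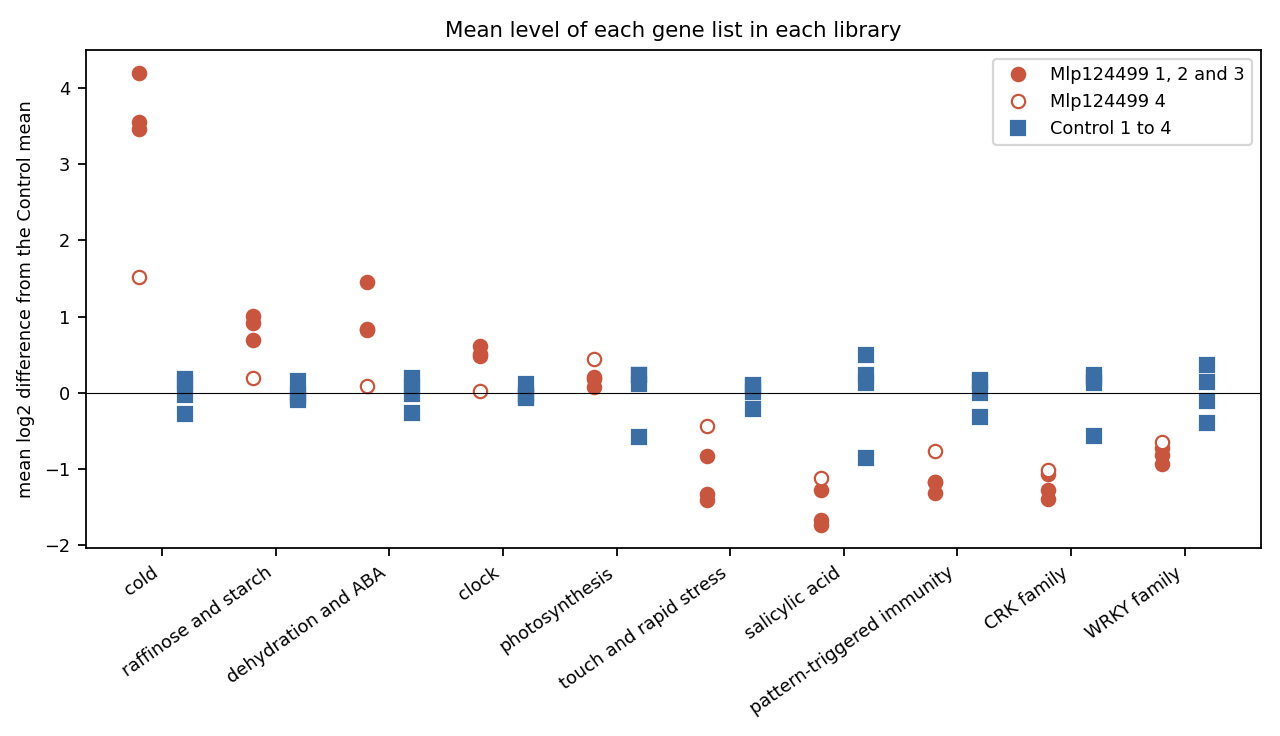
Mean log2 difference of each list's tested genes from the Control mean, per library, with Mlp124499 1 to 3 as filled circles, Mlp124499 4 as an open circle and Control as squares. For cold genes Mlp124499 4 stands at 1.52, below the other libraries of its line at 3.46 to 4.2, while for the CRK and WRKY families it stands beside them.

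The genes with the highest and lowest fold changes included several outside these lists. AT2G01422, annotated as a non-coding RNA, had 42, 50, 14 and 194 counts in Mlp124499 1 to 4, against 0 in every Control library, at least 149-fold higher by a floor of 3 counts over the group. Mlp124499 4 held 194 of its 300 counts, and without that library the bound was at least 75.0-fold. The call was lost without Mlp124499 2 (adjusted p 0.0513 in edgeR). AT1G27565, which encodes a protein with no described role in the annotation used, stood at 6.26, 5.99, 5.58 and 7.72 CPM in Mlp124499 1 to 4, against 0.398, 0.456, 0.268 and 0.514 CPM in Control 1 to 4, a log2 fold change of 3.90 ± 0.37 (SE, adjusted p 6.67e-04 in edgeR). In both genes Mlp124499 4 was the highest of its line. AT1G61550, annotated as an S-locus lectin kinase, stood at 0.272, 0, 0.0774 and 0.0648 CPM in Mlp124499 1 to 4, against 7.83, 5.86, 10.6 and 6.47 CPM in Control 1 to 4. CML42 (AT4G20780), a calmodulin-like protein, stood at 0.181, 0.164, 0 and 0.259 CPM in Mlp124499 1 to 4, against 8.49, 7.23, 8.32 and 11.2 CPM in Control 1 to 4. AT4G11170, known as RMG1, a TIR-type intracellular immune receptor, stood at 0.454, 0.902, 0.697 and 1.49 CPM in Mlp124499 1 to 4, against 12.6, 8.85, 20.5 and 4.93 CPM in Control 1 to 4. These 3 fell by 6.18, 5.77 and 3.68 on the log2 scale, were past the threshold whichever library was left out, and had Mlp124499 4 beside the other libraries of its line.

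Each Mlp124499 library was also placed against Control for the genes called without it. Of the genes called higher without Mlp124499 1 and 2 (105 and 108), 100.0% were higher than every Control library in the library left out, and for Mlp124499 3 it was 93.8% of 145. For Mlp124499 4 it was 43.1% of 793, while 35.8% lay within the Control range and 21.1% lay below every Control library. Of the genes called lower, the share below every Control library was 100.0% of 187, 100.0% of 148, 95.1% of 286 and 53.5% of 1085 for Mlp124499 1 to 4. The number called differs between these fits, and so do the genes, so the shares are not like for like. The fits without Mlp124499 1, 2 or 3 keep Mlp124499 4, and genes in which it lay with Control were less easily called there. Mlp124499 1 and 2 were the most alike pair of their line (correlation of log2 CPM 0.988). Each therefore had a close match in the fit that left it out. Of the risen cold genes, 11 of 16 called without Mlp124499 4 had that library above Control, of the fallen salicylic acid genes 14 of 19 had it below Control, and of the fallen CRK genes 14 of 17. Of the fallen clock genes it was 3 of 8, with CCA1 and LNK4 above every Control library.

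**Figure D4:**
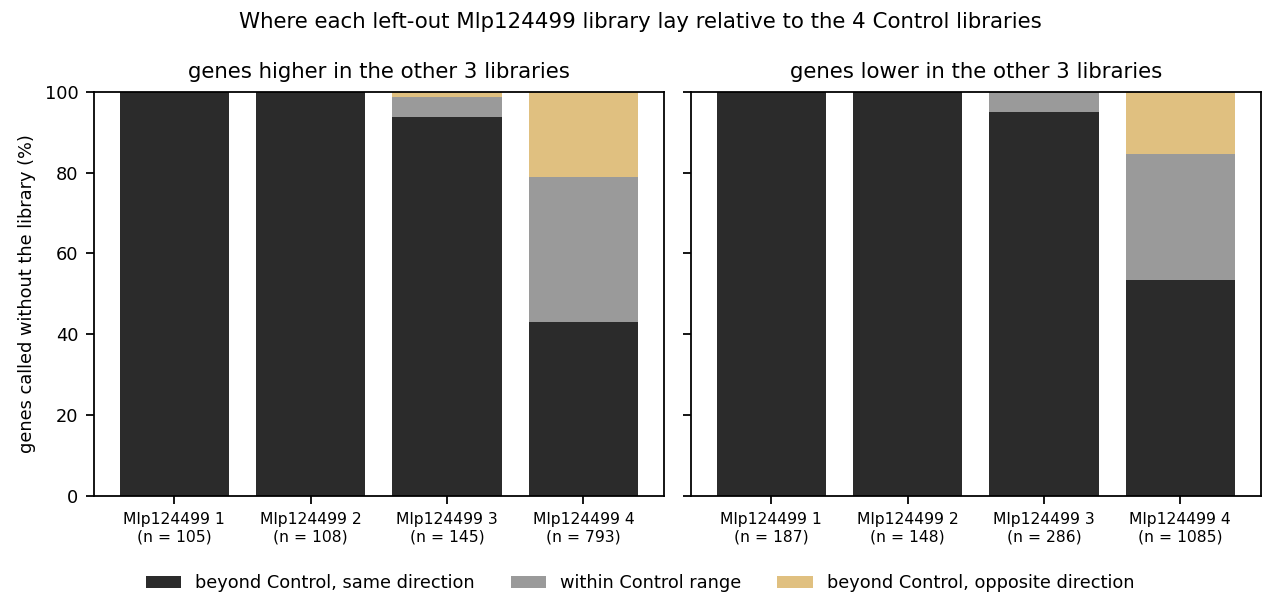
For the genes called higher (left) or lower (right) without 1 Mlp124499 library, the percent in which that library lay beyond every Control library in the same direction (dark), within the Control range (grey) or beyond it in the opposite direction (light). The bar of Mlp124499 4 is dark for 43.1% of 793 higher and 53.5% of 1085 lower genes, against at least 93.8% for the other 3 libraries. The fits call different genes, so the bars are not like for like.

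Motif matches in the 300 bases before the gene start differed between the called sets. The evening element AAAATATCT was found in 14.8% of the windows of risen genes and 1.93% of those of fallen genes, against 2.99% of all 19089 windows. The W-box core TTGAC was found in 39.7% of risen and 68.7% of fallen genes, against 50.0% of all. The CRT/DRE core CCGAC was found in 54 of 297 risen genes and 58 of 518 fallen genes, against 15.1% of all. The ABRE core ACGTG of ABA-responsive promoters was found in 34.0% and 30.1%, against 26.0% of all, and the G-box CACGTG, which contains it, in 12.1% and 5.98%, against 8.08%. With a window of 250 bases before to 50 after the start, the evening element was found in 20.5% of risen and 2.32% of fallen genes, against 3.07% of all, and the W-box core in 39.4% and 72.2%, against 50.7%. By list, the evening element was in 22.6% of 31 clock genes and the CRT/DRE core in 36.8% of 19 cold genes, which are 25.8% and 26.3% in the second window. The W-box core was in 90.6% of 32 genes of pattern-triggered immunity, 73.0% of 37 CRK genes and 54.5% of 33 salicylic acid genes, and in the second window in 87.5% of the first list and 63.6% of the last. The motifs were searched on both strands and were not tested for a difference.

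**Figure D5:**
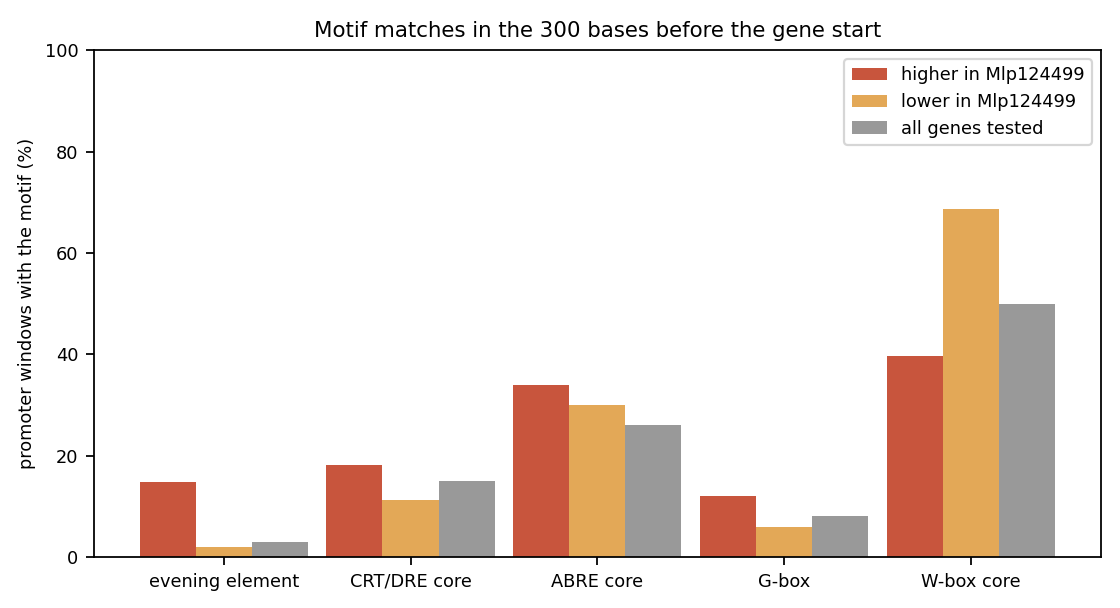
Percent of promoter windows with at least 1 match to each motif, for genes higher in Mlp124499, genes lower in Mlp124499 and all genes tested. The evening element bar is highest for risen genes, at 14.8%, and the W-box bar for fallen genes, at 68.7%.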

How the data were processed

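RNA sequencing counts of 12 libraries were used, 8 of them (4 Mlp124499 and 4 Control) in the comparison. Libraries were made with a stranded mRNA kit from 100 ng of RNA, per the labels' protocols. The deposited counts are whole read pairs per transcript locus, made by the authors with Trimmomatic, TopHat 2.0.14 on TAIR10 and R 3.2.5, per the submitters' processing notes and the design text of the series. The strand setting and the treatment of multi-mapped reads are not given in the sources used, so genes that overlap others or have close copies are uncertain. The authors' deposited read numbers gave the aligned shares.

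Here, edgeR 4.0.16 under R 4.3.3 scaled counts by TMM, filtered them by filterByExpr on the 3 groups and fitted all 12 libraries in 1 quasi-likelihood model with no covariate. The Benjamini-Hochberg adjustment ran over every gene tested, at 0.05, and SE is the absolute log2 fold change over the root of F. CPM values were computed from the deposited counts with TMM scaling. Counting intervals are exact at 95% and cover counting error only. The fit was checked on simulated counts with the same change in every Mlp124499 library. That check does not cover a library apart from its line, such as Mlp124499 4. Alternatives were total-count and relative log expression scaling in edgeR, other filters, DESeq2 1.42.0, limma 3.58.1 voom, a replicate block, other thresholds and leaving out each library.

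The members, lists and tests were chosen with earlier results of these data known. The fits without 2 libraries, the left-out comparison, the 5 motifs and both promoter windows were chosen after seeing the data, and the change of window, made so that no transcribed bases are printed, came after the motif shares were seen. Named genes are the 12 highest and 12 lowest that do not overlap at 1 CPM or more, the 4 lowest p per list, any called list member, a fixed set and genes that Mlp124499 4 separates, and the text describes part of them. Loci were matched to RefSeq TAIR10.1 by locus tag, 99.1% of identifiers.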

Additional observations from a re-analysis of the deposited data

Results flagged for a closer look

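In 41 cases 1 library of a group of 4 lay apart from the other 3 by more of the group's range than Dixon's critical value at 95% allows. Chance flags about 1 in 20 groups, a rate that does not hold for groups picked by their values. Part of the named genes were picked by where Mlp124499 4 lay, so the flags of that library cannot be set against this rate. CRU1 and CRU3 count again in the sum of seed markers. No explanation for the flagged cases was tested.

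Most of these were Mlp124499 4. It was below the other 3 libraries of its line for PRR5 (1.75 CPM), PRR3 (0.195 CPM), FKF1 (0.0648 CPM), AT5G17460 (3.83 CPM), GRP8 (130.3 CPM), PIF4 (43.1 CPM), a light and temperature growth factor, and XYL1 (479 CPM), a cell wall xylosidase. It was above them for the morning clock genes CCA1 (408 CPM) and LHY (470.3 CPM), the nitrate reductases NIA2 (1016 CPM) and NIA1 (116 CPM), the flavonoid genes MYB111 (8.62 CPM), DFR (4.73 CPM) and LDOX (4.09 CPM), and the antenna gene LHCB4.3 (49.4 CPM). The same held for the catalase CAT2 (1279 CPM), ATH13 (529 CPM), AT5G42530 (1334 CPM), JAZ9 (97.5 CPM), ZAT11 (1.95 CPM), ADR1 (12.8 CPM), ADR1-L2 (45.6 CPM), UGT76B1 (6.74 CPM), CRK39 (2.85 CPM) and BHLH039 (0.0648 CPM). The value of BHLH039 rests on 1 count against 0 in the other 3, and ADR1-L2 stood at 40.2 to 40.6 CPM in them.

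Seed storage genes were also apart in Mlp124499 4, with CRU1 at 11.8 CPM, CRU3 at 13.9 CPM, the oleosin OLEO1 at 0.584 CPM and the marker sum at 26.5 CPM. Mlp124499 3 stood above its line for PSAO (3718 CPM), PAD3 (17.9 CPM), CRT3 (171 CPM) and FMO1 (1.16 CPM), and below it for PCNA1 (4.57 CPM).

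Among the Control libraries, Control 1 stood high for AT2G41105 (282 CPM) and ABF1 (9.29 CPM) and low for NIA2 (1063 CPM). Control 2 stood high for CRU1 (0.130 CPM). Control 4 stood low for CBF3 (0.103 CPM) and high for BHLH039 (1.16 CPM) and FKF1 (0.0770 CPM), the last resting on 3 counts.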

How the results depend on the processing

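The counts of 297 higher and 518 lower genes were 636 and 861 in DESeq2, 3068 and 3841 in limma voom with sample weights, 84 and 151 when a fold of 1.5 was tested, and 69 and 156 at an adjusted p of 0.01. Leaving out 1 library gave 89 to 793 higher and 148 to 1085 lower. The fit of 8 libraries without Mlp124499 4 gave 1028 and 1536, and the fit without both Mlp124499 4 and Mlp37347 4 gave 1728 and 2013. These last fits were chosen after seeing the data, and the cause of the changes was not tested. Other scalings, no filter and the 8 libraries alone stayed within 1.5 times, at 261 to 323 higher and 460 to 595 lower. The genes behind these totals changed more. Of the 297 higher and 518 lower genes, 214 and 391 also passed in the fit of the 8 libraries alone. In that fit 15 cold and 4 clock genes rose, against 11 and 7 in the main fit.

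The main fit did not pair samples by replicate number. Deviations of same-numbered Mlp124499 and Control libraries correlated at -0.27, 0.09, -0.3 and 0.06, and those of other pairs at -0.43 to 0.55. So few values cannot tell if same-numbered samples were handled together. With the replicate block 96 genes were higher and 225 lower.

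BHLH039 turned to 1.66 without Control 4, and ranged to -5.78 over the other left-out libraries. MYB111 turned to -0.23 in limma voom, -0.21 without Mlp124499 4, -0.25 in the 8 libraries without it and -0.21 without both libraries numbered 4. Neither was called, and the cause was not tested. Of the other log2 fold changes under an alternative, 3144 kept direction and side of the threshold, 617 lost it and 170 gained it. Depth limits genes of few counts, such as FKF1 in Control.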
